A study of Mus musculus with 32 samples.

Results

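The SOX proteins are transcription factors that bind DNA through a shared high-mobility-group box and are sorted into subgroups by sequence. Sox2 of the SOXB1 subgroup holds the pluripotent state together with Oct4, and Sox1 and Sox3, of the same subgroup, are known as genes of early neural cells. Sox4, Sox11 and Sox12 form the SOXC subgroup and are known from neuronal and mesenchymal precursors, Sox21 is a SOXB2 repressor, Sox13 belongs to SOXD, and Sox15 is the lone member of SOXG, expressed in embryonic stem cells. These 9 genes, the SOX genes outside the endoderm group, were taken by name from the 31053 genes counted and described over all 8 groups of the series. A further 11 SOX genes were followed for comparison.

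RNA was measured by 3′ end sequencing (QuantSeq) in mouse embryonic stem cells (ESCs) of the line C1, with 4 libraries in each group that the labels call biological replicates. The study describes the samples of a group as coming from the same experiment, so p-values measure the spread within that experiment. All groups share the background of the line: the endogenous β-catenin gene is deleted, and lentiviral vectors carry the rtTA activator under the EF1a promoter and, under the TRE3G promoter, an active β-catenin S33Y joined to mCherry and a domain that destabilizes the protein. Doxycycline (dox) switches on this transgene, and trimethoprim (TMP) keeps its protein from being degraded. Before sorting, the C1 and C1T cells received 10 µM TMP for 48 h, and the other groups received 10 µM TMP with 100 ng/mL dox. C1 (day 0, live cells), C1M (day 0, middle mCherry) and C1H (day 0, high mCherry) were collected from pluripotent culture after sorting, and the others after 4 days in NDiff227 medium. The day 0 medium is given as serum with LIF in the labels and as 2i/L, which holds a GSK3 inhibitor, in the methods, so every comparison of day 4 with day 0 also changes the medium. During these days C1T had TMP, C1MV and C1HV (from the middle and high fractions) had DMSO in place of both inducers, and C1MDT and C1HDT kept dox and TMP. C1 cells were not given dox and were not gated on mCherry, so dox, the gate and the fusion protein cannot be told apart in a comparison with C1 or C1T. C1MV and C1HV also lacked the TMP that C1T had during differentiation, which cannot be told apart from these.

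Totals on genes ran from 1366951 to 3648787 reads per library, and 3 counts, the upper limit that a count of 0 allows, came to between 0.822 and 2.19 CPM (counts per 1e6 reads on genes). Levels below are CPM after TMM scaling, and they are compared between groups within a gene, never between genes. Ctnnb1, which encodes β-catenin, was at 7.81 ± 2.63 CPM (SD, n = 4) in C1, 12.3 ± 3.84 in C1M and 41.2 ± 5.70 in C1H, and at 9.74 ± 2.47 in C1T, 9.16 ± 2.57 in C1MV and 6.21 ± 1.84 in C1HV, and 29.2 ± 4.29 in C1MDT and 30.8 ± 3.75 in C1HDT. The deletion removed the coding sequence, and a 3′ read can come from outside it, so the level in C1 does not test the deletion. C1H exceeded C1 (log2 fold change 2.37, SE 0.21, adjusted p = 6.5e-20 with edgeR's quasi-likelihood test), whereas C1M did not pass the threshold (0.61, SE 0.25, adjusted p = 0.055). All 7 ESC markers of the list used were above 3 counts in every library, and their summed level fell from 5050 to 5238 CPM in C1 to 615 to 725 CPM in C1T.

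All 9 genes passed the filter on low counts (at least 1 CPM in at least 4 libraries), which left 15280 genes tested. Their positions in GRCm38 are chr8:12395295-12400126 for Sox1, chr3:34650405-34652461 for Sox2, chrX:60891366-60893430 for Sox3, chr13:28948919-28953713 for Sox4, chr12:27334264-27342574 for Sox11, chr2:152393611-152398063 for Sox12, chr1:133382303-133424377 for Sox13, chr11:69655314-69656727 for Sox15 and chr14:118233232-118237030 for Sox21. Sox1, Sox2, Sox3, Sox4, Sox11 and Sox21 are each annotated with a single exon, on which the 3′ reads fall. How the counting treated strand is not given in the sources used here, and without strand, reads of overlapping genes on opposite strands cannot be told apart. Sox15 shares 31 exonic bases with Mpdu1 on the other strand, which had 345 to 920 counts per library. Sox21 shares 713 bases with the noncoding Gm4675 (1 to 31 counts), and Sox4 shares 2616 bases with the noncoding Gm26735 (0 to 1 counts). Sox1 and Sox2 lie within the transcripts Sox1ot and Sox2ot on the same strand, which are not analysed here.

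RefSeq promoter windows, 250 bases before to 50 after the start, were matched for 8 of the 9 genes by symbol (GRCm38.p6). The RefSeq starts can differ from the gene positions given above. The upstream bases of Sox2 end at 34649994, before its position begins at 34650405. Those of Sox1, chr8:12395269-12395518, run past 12395295, where its position begins. The upstream bases of the 3 SOXC genes, which rose together, and of Sox2, which fell while they rose, are shown on the strand of the gene, with the POU octamer ATGCAAAT and the CCAAT box in capitals wherever a script found their letters on either strand (CCAAT on the other strand reads ATTGG).
Sox4, chr13:28953700-28953949, minus strand: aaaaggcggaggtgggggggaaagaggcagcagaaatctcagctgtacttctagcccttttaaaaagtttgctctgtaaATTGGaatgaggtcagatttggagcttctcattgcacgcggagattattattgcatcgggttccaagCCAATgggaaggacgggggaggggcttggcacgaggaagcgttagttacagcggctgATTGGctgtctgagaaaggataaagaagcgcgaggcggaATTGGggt
Sox11, chr12:27342719-27342968, minus strand: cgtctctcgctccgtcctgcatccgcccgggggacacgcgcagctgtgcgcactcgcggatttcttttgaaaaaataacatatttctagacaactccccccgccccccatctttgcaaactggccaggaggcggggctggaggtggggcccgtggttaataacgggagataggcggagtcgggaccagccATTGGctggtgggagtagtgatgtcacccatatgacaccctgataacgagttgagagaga
Sox12, chr2:152398047-152398296, minus strand: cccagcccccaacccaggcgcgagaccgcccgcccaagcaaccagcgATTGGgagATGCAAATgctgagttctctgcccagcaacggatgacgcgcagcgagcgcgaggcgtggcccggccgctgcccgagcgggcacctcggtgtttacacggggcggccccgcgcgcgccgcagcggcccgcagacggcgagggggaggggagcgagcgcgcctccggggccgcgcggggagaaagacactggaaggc
Sox2, chr3:34649745-34649994, plus strand: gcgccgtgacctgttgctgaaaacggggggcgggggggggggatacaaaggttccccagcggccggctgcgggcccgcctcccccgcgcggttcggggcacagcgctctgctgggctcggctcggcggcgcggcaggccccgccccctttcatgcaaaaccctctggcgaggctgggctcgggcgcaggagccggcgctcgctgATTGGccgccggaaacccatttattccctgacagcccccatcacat

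In these windows CCAAT was found in 5 of the 8 genes, against 37.4% of the 32851 windows in the table, and the 4 matches in Sox4 were the most for any of them. The octamer was found in Sox12, 195 bases before the start, and in Sox1, against 1.74% of all windows. The TCF/LEF letters CTTTGAT and CTTTGAA, which stand for the site of the DNA-binding partners of β-catenin, were in 0 of the 8 windows, against 3.73% and 5.14% of all windows. The SOX letters AACAAT were also in 0 of 8, against 10.7%. Matches describe these letters in these windows.

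Sox2 and Sox11 changed in opposite directions with differentiation. Sox2 was at 890, 823, 849 and 877 CPM in the C1 replicates, 778, 747, 838 and 829 in C1M, and 767, 760, 728 and 788 in C1H. At day 4 it was at 473, 452, 406 and 441 CPM in C1T, 566, 464, 400 and 413 in C1MV and 447, 596, 484 and 562 in C1HV. With dox and TMP kept, Sox2 was at 242, 278, 244 and 292 CPM in C1MDT and 305, 241, 213 and 269 in C1HDT. All day 0 libraries were above all day 4 libraries, and the libraries with inducers kept were all below the other day 4 libraries. Sox11 was at 10.1, 11.9, 8.82 and 13.9 CPM in C1, 33.1, 26.6, 39.1 and 37.97 in C1M, and 28.6, 29.6, 34.1 and 27.3 in C1H. At day 4 it reached 252, 244, 326 and 256 CPM in C1T, 212, 257, 232 and 243 in C1MV, and 314, 257, 281 and 307 in C1HV. The libraries with inducers kept were the highest, at 434, 400, 458 and 386 CPM in C1MDT and 352, 414, 407 and 389 in C1HDT. Sox11 had the widest span of the 9 genes, 5.14 between its highest and lowest group mean on the log2 CPM scale, and Sox13 the narrowest, 1.41.

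Sox1 was at 21.0, 22.6, 24.4 and 23.0 CPM in C1, 22.9, 12.8, 15.6 and 18.2 in C1M, and 12.9, 17.1, 16.1 and 13.9 in C1H. At day 4 it was at 106, 94.5, 80.6 and 88.1 CPM in C1T, 86.3, 86.5, 94.5 and 89.9 in C1MV, and 99.2, 80.1, 96.4 and 97.6 in C1HV. It was at 170, 153, 174 and 164 CPM in C1MDT and 123, 138, 157 and 153 in C1HDT, so that the inducers separated the day 4 libraries of Sox1 as they did those of Sox2, in the other direction. Of the other SOXB1 gene, Sox3, C1 libraries held 2, 4, 1 and 2 counts, near the limit for a count of 0. Its level was 1.15 ± 0.769 CPM in C1 and 25.7 ± 5.52 in C1T, and folds against C1 are therefore imprecise.

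**Figure D1:**
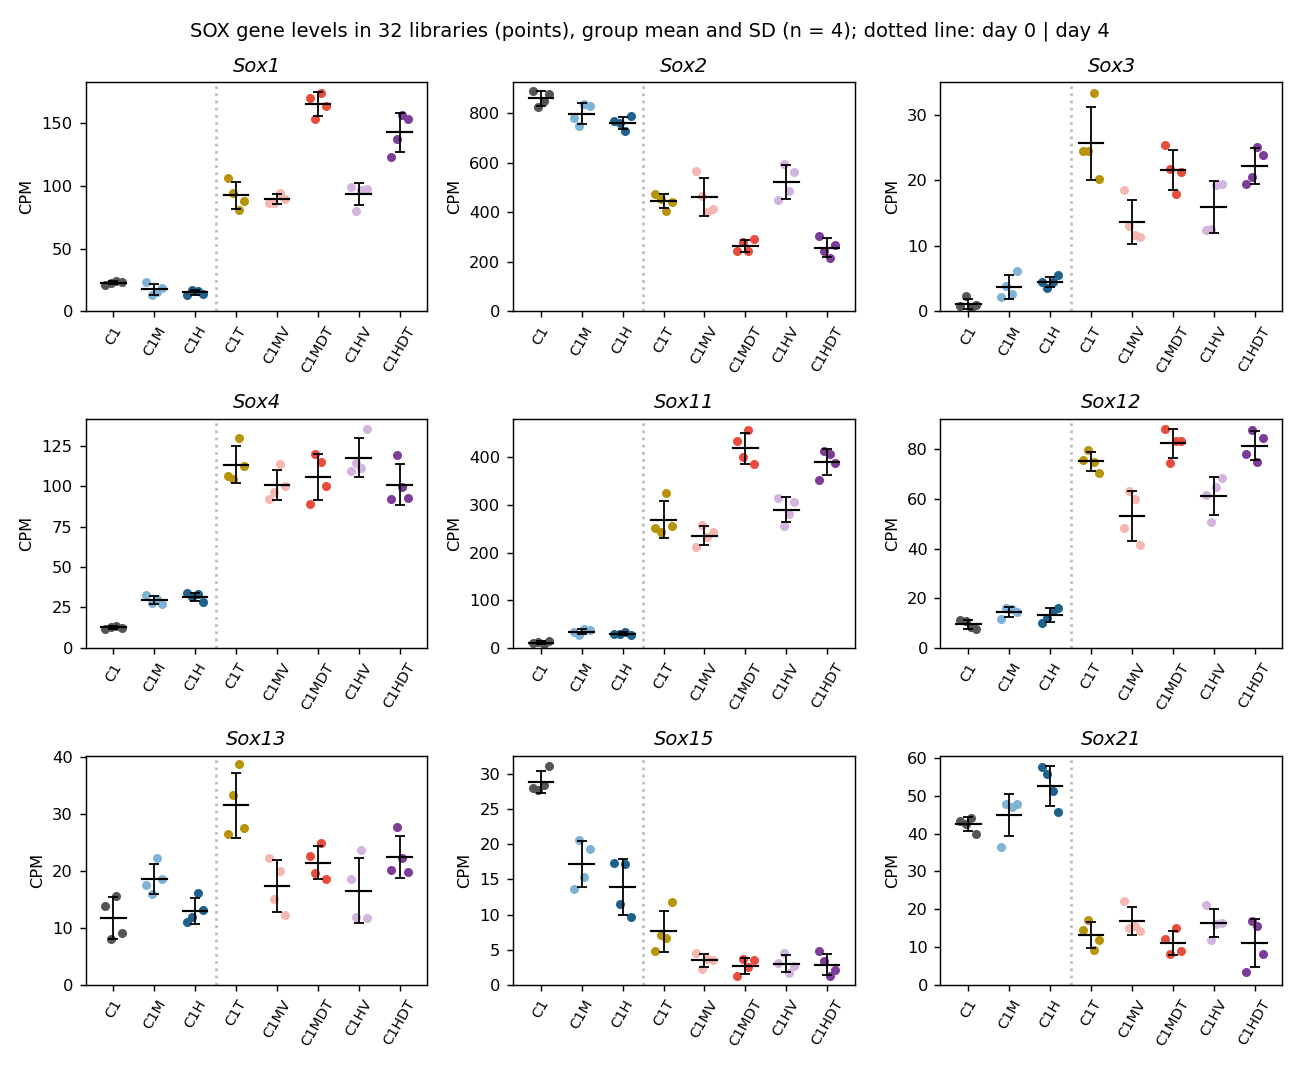
Level of each of the 9 SOX genes in CPM (linear axis from 0) in the 4 libraries of each group (points), with the group mean and SD (black); the dotted line separates day 0 from day 4. Sox2, Sox15 and Sox21 are high at day 0, Sox1, Sox3, Sox4, Sox11 and Sox12 are high at day 4, and Sox13 has its highest mean, 31.4 CPM, in C1T.

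The first comparison asks how SOX genes differed at day 0 between cells with the fusion protein and C1. In C1M, 5 of the 9 genes rose (Sox3, Sox4, Sox11, Sox12 and Sox13) and Sox15 fell, where 14.3% of all genes tested rose and 12.0% fell (2184 and 1838 genes, or 2638 and 1447 when scaled by library size only). Sox11 rose 3.06-fold (log2 fold change 1.61, SE 0.17, adjusted p = 2.7e-15) and Sox4 2.32-fold (1.21, SE 0.17, adjusted p = 1.6e-09). Sox4 was at 11.8 to 13.5 CPM in C1 and 27.2 to 32.7 CPM in C1M, without overlap. In C1H, Sox3, Sox4 and Sox11 rose and Sox1 and Sox15 fell, where 13.8% of all genes rose and 12.1% fell (2113 and 1852 genes, or 2732 and 1376 by library size only). Sox15, a gene of ESCs, was at 27.7 to 31.2 CPM in C1, 13.6 to 20.6 in C1M and 9.67 to 17.4 in C1H, and its log2 fold change was -0.74 (SE 0.21, adjusted p = 0.0031) in C1M and -1.04 (SE 0.21, adjusted p = 3.6e-05) in C1H. Sox1 had a log2 fold change of -0.59 (SE 0.17, adjusted p = 0.00395) in C1H and of -0.40 (SE 0.16, adjusted p = 0.056) in C1M. For Sox2, the key SOX gene of the ESC state, the values were -0.11 (95% interval -0.27 to 0.06) in C1M and -0.18 (-0.34 to -0.01, adjusted p = 0.11) in C1H, and for Sox21 0.08 (-0.25 to 0.42) and 0.32 (-0.01 to 0.65). C1H and C1M did not differ past the threshold in any of the 9 genes (0 called by edgeR and 0 by DESeq2, 1 at an unadjusted p under 0.05), where 1.77% of all genes did (271 genes, or 570 in a fit of only these groups). ESC markers moved with these day 0 differences: 5 of the 7 fell and 1 rose in C1M against C1, 4 fell and 0 rose by edgeR in C1H, and their sum was 3856 to 4042 CPM in C1M and 3917 to 4084 in C1H, below C1. Of 11 endoderm markers tested, 3 rose and 2 fell in C1M and 1 rose and 2 fell in C1H. The share of reads with no annotated feature was 9.78 to 10.4% in C1, 9.03 to 9.91% in C1M and 10.8 to 11.2% in C1H. That of reads not uniquely aligned was 49.4 to 51.3% in C1, 53.1 to 54.1% in C1M and 50.7 to 51.3% in C1H. The part of these markers and shares in the day 0 values of the SOX genes was not tested. The largest difference between C1H and C1M among the 9 genes was in Sox13, -0.52 (95% interval -0.92 to -0.13, adjusted p = 0.19).

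Of the calls in C1M, that of Sox12 (0.60, SE 0.21, adjusted p = 0.023) was lost without C1 replicate 3 or 4 or without C1M replicate 2 or 3, with adjusted p from 0.063 to 0.094. That of Sox13 (0.66, SE 0.22, adjusted p = 0.014) was lost without C1 replicate 2 or 4 or C1M replicate 3, with adjusted p from 0.067 to 0.089, and that of Sox3 (1.68, SE 0.49, adjusted p = 0.0054) without C1M replicate 4, with adjusted p = 0.053. Without C1M replicate 1 the value of Sox1 was -0.56 (adjusted p = 0.012).

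**Figure D2:**
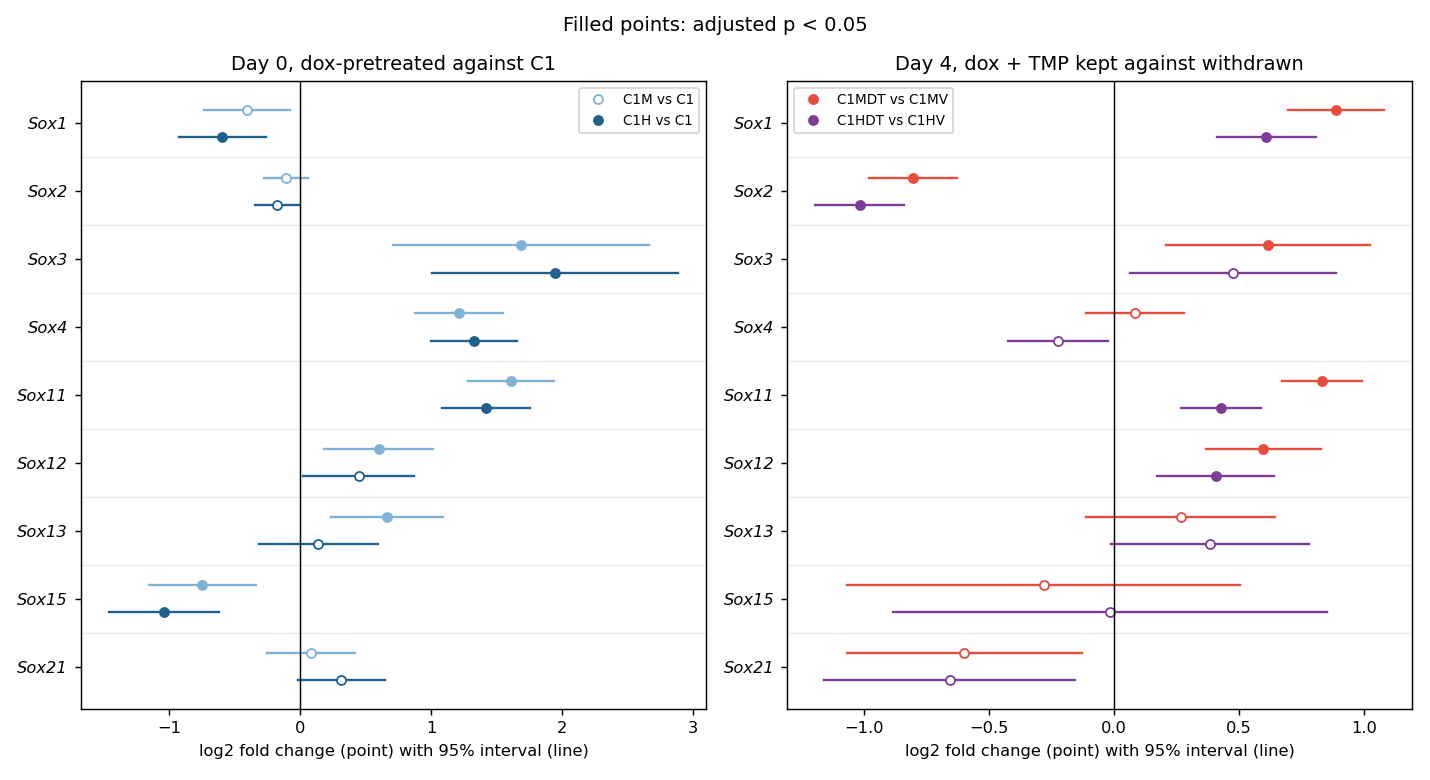
Left, log2 fold change of each SOX gene at day 0 in C1M and C1H against C1; right, at day 4 with dox and TMP kept against withdrawn (C1MDT vs C1MV and C1HDT vs C1HV). Points are edgeR estimates, lines 95% intervals, and filled points have an adjusted p under 0.05; Sox4 and Sox11 rose in both day 0 comparisons, and Sox1 and Sox11 rose and Sox2 fell with both fractions at day 4.

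The next comparisons ask how the genes changed over 4 days of differentiation. The share of reads with no annotated feature, a property of the libraries, was 9.03 to 11.2% at day 0 and 4.72 to 6.83% at day 4, without overlap, and its part in these comparisons was not tested. Endoderm markers moved with them too: of 11 tested, 1 rose and 2 fell from C1 to C1T, 11 rose from C1M to C1MV and from C1H to C1HV, 8 rose and 1 fell from C1M to C1MDT, and 8 rose from C1H to C1HDT. Their part was not tested. From C1 to C1T all 9 genes changed: Sox1, Sox3, Sox4, Sox11, Sox12 and Sox13 rose, where 24.4% of all genes rose, and Sox2, Sox15 and Sox21 fell, where 24.9% fell. Sox11 rose 24.1-fold (log2 fold change 4.59, SE 0.13), Sox4 8.93-fold (3.16, SE 0.14), Sox12 7.87-fold (2.98, SE 0.17) and Sox1 4.07-fold (2.02, SE 0.13), with adjusted p from 2.1e-70 to 4.4e-31. Sox3 had a log2 fold change of 4.49 with a 95% interval of 3.80 to 5.17. Sox2 fell by 0.96 on the log2 scale (SE 0.09, adjusted p = 1.1e-14), Sox21 by 1.67 (SE 0.21, adjusted p = 2.4e-10) and Sox15 by 1.97 (SE 0.25, adjusted p = 4.2e-12). The SOXB1 genes thus divided, with Sox1 and Sox3 higher and Sox2 lower at day 4, while the 3 SOXC genes all rose.

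In the cells of the mCherry fractions, 8 of the 9 genes changed from C1M to C1MV, from C1M to C1MDT and from C1H to C1HV, in the directions they took from C1 to C1T, and Sox13 did not pass the threshold. From C1H to C1HDT all 9 did, with Sox13 rising by 0.77 (SE 0.20, adjusted p = 0.00035). The genes that rose are to be read against 22.0%, 24.5%, 22.0% and 26.3% of all genes for C1MV, C1MDT, C1HV and C1HDT, and those that fell against 23.9%, 27.9%, 25.1% and 29.4%. Sox1 rose 5.20-fold in C1MV, 9.62-fold in C1MDT, 6.20-fold in C1HV and 9.46-fold in C1HDT against its day 0 group. Sox2 fell by 0.79 (SE 0.08) in C1MV, 1.59 (SE 0.09) in C1MDT, 0.55 (SE 0.08) in C1HV and 1.56 (SE 0.09) in C1HDT. Sox15 fell to means of 2.70 to 3.47 CPM in these 4 groups, or 2 to 14 counts per library, which leaves little room to see a difference between them.

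**Figure D3:**
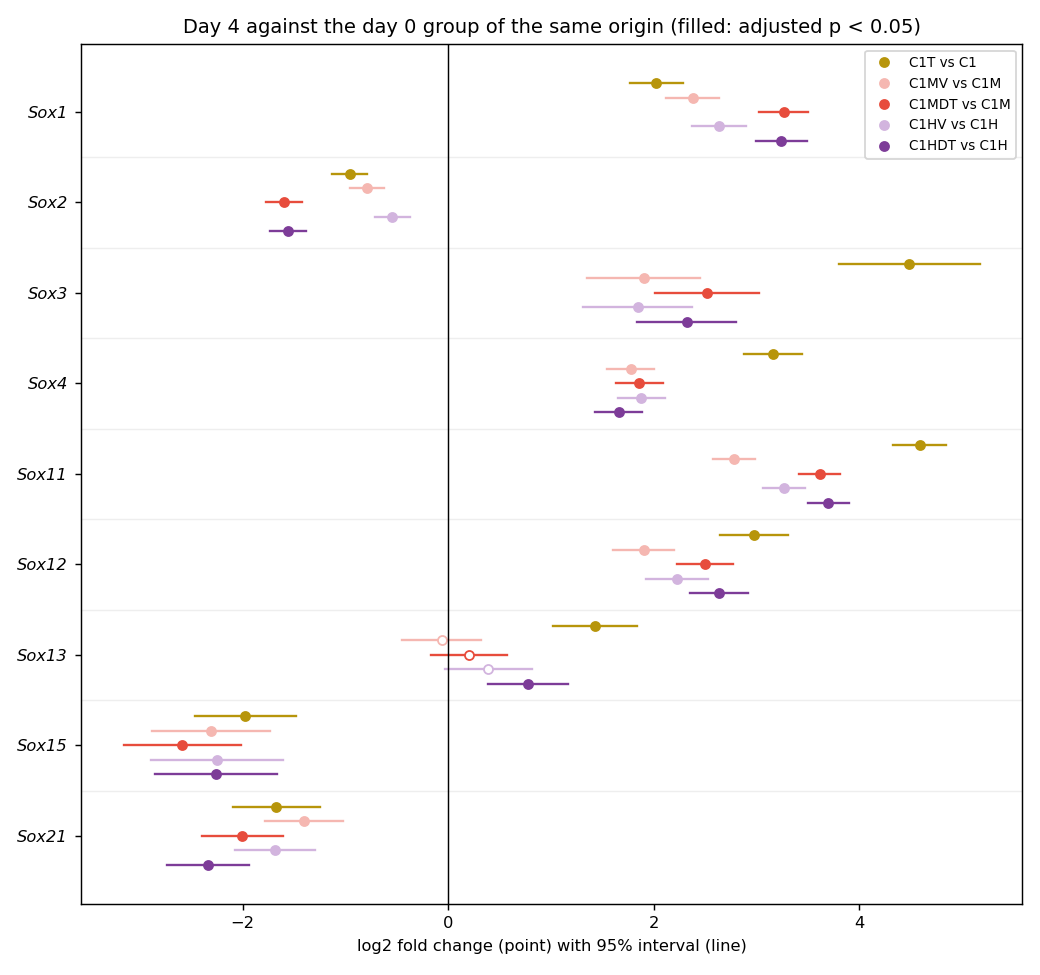
Log2 fold change of each SOX gene from the day 0 group of the same origin to day 4, in C1T, C1MV, C1MDT, C1HV and C1HDT. Points are edgeR estimates, lines 95% intervals, and filled points have an adjusted p under 0.05; Sox3, Sox4, Sox11, Sox12 and Sox13 have their largest rise in C1T, where Sox4 rose by 3.16 against 1.66 to 1.88 in the others.

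The change over differentiation was then compared between each mCherry group and C1T, as the difference of the 2 changes. It differed past the threshold for 5 of the 9 genes with C1MV, 6 with C1MDT, 7 with C1HV and 5 with C1HDT, where 22.5%, 24.4%, 21.9% and 25.2% of all genes did. The rise of Sox3, Sox4 and Sox11 was smaller in all 4 groups, and the log2 differences of Sox4 were -1.38, -1.30, -1.28 and -1.50 for C1MV, C1MDT, C1HV and C1HDT. Each of these values is the day 4 difference from C1T minus the day 0 difference from C1, so these values and the day 0 comparison are not independent. At day 4 Sox4 was at 113 ± 11.4 CPM in C1T and had means of 100.5 to 118 CPM in the other groups. The rise of Sox1 was larger by 1.24 (SE 0.19, adjusted p = 5.3e-08) in C1MDT and by 1.22 (SE 0.20, adjusted p = 1.2e-07) in C1HDT. Of the 11 endoderm markers, 9 had a higher change than in C1T in each of the 4 differences. Of the 7 ESC markers, 5 had a higher and 1 a lower change in C1MV, and 1 a higher and 3 a lower change in C1MDT. The part of these markers in the values of the SOX genes was not tested. The 4 differences share the C1 and C1T libraries, so they are not independent of each other. In C1HV the call for Sox1 (0.61, SE 0.20, adjusted p = 0.016) was lost without C1H replicate 1, with adjusted p = 0.053, and that for Sox12 (-0.75, SE 0.25, adjusted p = 0.017) without C1 replicate 4 or C1H replicate 3 or 4, with adjusted p from 0.053 to 0.060.

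Groups that kept dox and TMP through differentiation were then compared with those from which both were withdrawn. Dox, TMP and the fusion protein change together in these comparisons and cannot be told apart. The share of reads with no feature was 4.72 to 5.33% in the libraries with inducers kept and 5.56 to 6.83% in the others from these fractions, and its part was not tested here either. Of 11 endoderm markers tested, 5 rose and 1 fell in C1MDT against C1MV and 4 rose and 1 fell in C1HDT against C1HV, while the sum of the list, given with the comparison to C1T, was lower with the inducers kept. Their part was not tested. In the middle fraction (C1MDT vs C1MV) Sox1, Sox3, Sox11 and Sox12 rose and Sox2 fell, where 6.64% of all genes rose and 5.95% fell. In the high fraction (C1HDT vs C1HV) Sox1, Sox11 and Sox12 rose and Sox2 fell, where 9.1% rose and 6.88% fell (1390 and 1052 genes, or 1097 and 1331 by library size only). Sox2 was 1.74-fold lower in C1MDT (log2 fold change -0.80, SE 0.09, adjusted p = 2.5e-10) and 2.02-fold lower in C1HDT (-1.02, SE 0.09, adjusted p = 1.3e-13). Sox1 was 1.85-fold higher in C1MDT (0.89, SE 0.10, adjusted p = 1.5e-13) and 1.53-fold higher in C1HDT (0.61, SE 0.10, adjusted p = 4.9e-07). Sox11 was 1.78-fold higher in C1MDT (0.83, SE 0.08, adjusted p = 2.1e-16) and 1.35-fold higher in C1HDT (0.43, SE 0.08, adjusted p = 1.3e-05). Sox12 had values of 0.60 (SE 0.12, adjusted p = 3.6e-05) and 0.41 (SE 0.12, adjusted p = 0.0081). Its SOXC relative Sox4 had values of 0.08 (95% interval -0.11 to 0.28) and -0.22 (-0.42 to -0.02, adjusted p = 0.12, or 0.047 by library size only).

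Sox21 had values of -0.60 (95% interval -1.07 to -0.13, adjusted p = 0.083) and -0.66 (-1.16 to -0.15, adjusted p = 0.064), and the second passed the threshold with DESeq2 (adjusted p = 0.037), by library size only (0.048), with no filter (0.025) and with 1 CPM required in all libraries (0.046). It also passed without C1HV replicate 2 or C1HDT replicate 2 or 3, with adjusted p from 0.0078 to 0.041. The call for Sox3 in C1MDT (0.62, SE 0.21, adjusted p = 0.031) was lost without C1MV replicate 2, 3 or 4 or C1MDT replicate 1, 2 or 4, with adjusted p from 0.055 to 0.12, and that for Sox12 in C1HDT without C1HV replicate 2, with adjusted p = 0.075. The effect of the inducers did not differ past the threshold between the fractions in any of the 9 genes (0.0% of all genes, 0 of 9 by edgeR and by DESeq2, 3 of 9 at an unadjusted p under 0.05). Sox11 came nearest, with a difference of -0.40 (95% interval -0.63 to -0.18, adjusted p = 0.21). DESeq2 called 20 genes of all tested in this comparison.

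Lists of other genes were read beside these SOX genes. Of 15 pluripotency genes tested, including Pou5f1, which encodes Oct4, the partner of Sox2, 10 fell and 4 rose from C1 to C1T, with Klf4 (-5.00, SE 0.12) and Tfcp2l1 (-4.71, SE 0.09) among those that fell and Lefty1 (5.39, SE 0.26) among those that rose, where 24.9% of all genes fell and 24.4% rose. The median of the list was -1.46, beside 0.01 over all genes. With dox and TMP kept, 9 of the 15 fell and 2 rose in C1MDT against C1MV, and 9 fell and 4 rose in C1HDT against C1HV, with Esrrb at -1.85 (SE 0.11) and -1.45 (SE 0.11). Of 17 neural progenitor genes tested, 7 rose and 3 fell from C1 to C1T, led by Pou3f1, a POU factor (5.88, SE 0.21). In C1MDT against C1MV, 2 of the 17 rose and 1 fell, and in C1HDT against C1HV, 3 rose and 1 fell. Over all genes 6.64% rose and 5.95% fell in the first of these and 9.1% rose and 6.88% fell in the second, so the counts of this list were near the background. The largest of these values were those of the adhesion molecule gene Ncam1, -1.05 (SE 0.09) and -1.06 (SE 0.09), and of Nes, which encodes the filament protein nestin, 1.03 (SE 0.24) and 0.79 (SE 0.23). Of 9 neuronal differentiation genes tested, 6 rose and 3 fell from C1 to C1T. In C1MDT against C1MV 1 of them rose and 3 fell, and in C1HDT against C1HV 1 rose and 2 fell. Of 8 neural markers, Fabp7 and Pou3f2 had 0 counts in all C1T libraries, and 3 were above 3 counts in every C1T library.

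Against C1T, the day 4 groups from the mCherry fractions share a control, and their values are given side by side. The share of reads with no feature was 6.50 to 6.79% in C1T. It was 4.72 to 5.33% in C1MDT and C1HDT and 5.56 to 6.83% in C1MV and C1HV, and its part was not tested. In C1MDT and C1HDT, Sox1 and Sox11 were higher and Sox2, Sox13 and Sox15 lower, where 16.9% and 17.4% of all genes were higher and 16.5% and 16.1% lower. Sox1 exceeded C1T by 0.84 (SE 0.10, adjusted p = 5.2e-13) in C1MDT and 0.62 (SE 0.10, adjusted p = 4.9e-08) in C1HDT, and Sox2 had values of -0.74 (SE 0.09, adjusted p = 4.5e-10) and -0.78 (SE 0.09, adjusted p = 1.0e-10). In C1MV, Sox3, Sox12, Sox13 and Sox15 were lower and 0 of 9 higher by edgeR and by DESeq2, where 14.9% of all genes were lower and 15.3% higher. In C1HV, Sox3, Sox13 and Sox15 were lower and Sox2 higher, where 14.3% were lower and 13.7% higher (2182 and 2091 genes, or 1762 and 2575 by library size only). Sox13 and Sox15 were lower than in C1T in all 4 groups, with Sox13 at 31.4 ± 5.68 CPM in C1T and means of 16.5 to 22.4 CPM in the others. Sox15, whose 3′ part overlaps Mpdu1, was at 7.58 ± 2.96 CPM in C1T. For Sox1 the difference to C1T was -0.05 (95% interval -0.26 to 0.16) in C1MV and 0.01 (-0.20 to 0.22) in C1HV.

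The call for Sox2 in C1HV (0.23, SE 0.09, adjusted p = 0.036) was lost without C1T replicate 3 or C1HV replicate 2 or 4, with adjusted p from 0.084 to 0.18. Without C1T replicate 3 the calls for Sox3 in C1HV (adjusted p = 0.081) and for Sox13 in C1MDT (0.078) were lost too. That for Sox13 in C1HDT was lost without C1T replicate 2 or 3 or C1HDT replicate 1 or 4, with adjusted p from 0.058 to 0.12, and that for Sox15 in C1MV without C1T replicate 4 or C1MV replicate 2, with adjusted p of 0.091 and 0.062.

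Endoderm markers moved with these differences. Of 11 tested, 9 were higher than in C1T in both groups with inducers withdrawn, and 8 were higher and 1, Ttr, lower in both groups that kept them. The summed level of all 12 was 1367 to 2013 CPM in C1T, 3424 to 4382 in C1MV and 3501 to 3693 in C1HV, and 2733 to 3343 in C1MDT and 2908 to 3283 in C1HDT. At day 0 the same sum was 2432 to 2757 CPM in C1, 1819 to 2026 in C1M and 1454 to 1911 in C1H, so it was higher in pluripotent C1 than in C1T. Afp, one of the 12, had 0 counts in all C1 and all C1MV libraries. ESC markers moved as well: 5 of the 7 were higher and 2 lower than in C1T in C1MV and in C1HV, whereas 0 were higher by edgeR in C1MDT and in C1HDT, and 5 and 4 were lower. Their sum was 615 to 725 CPM in C1T, 855 to 1014 in C1MV, 737 to 898 in C1HV, 406 to 470 in C1MDT and 373 to 531 in C1HDT. Of 6 neural markers tested, 1 to 3 were higher and 1 was lower in each of the 4 groups. The part of these markers in the differences of the SOX genes was not tested, and in bulk RNA fewer cells of a type and less RNA per cell cannot be told apart. Of the other lists, 1 of 7 mesoderm markers tested was higher than in C1T in each of the 4 groups and 1 was lower in C1MDT, a share near the 13.7% to 17.4% of all genes that were higher, and 1 or 2 of 5 trophoblast markers were. Of 4 fibroblast markers 0 to 2 were higher, and the sum of the list was 7.54 to 21.5 CPM over these 4 groups and C1T.

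**Figure D4:**
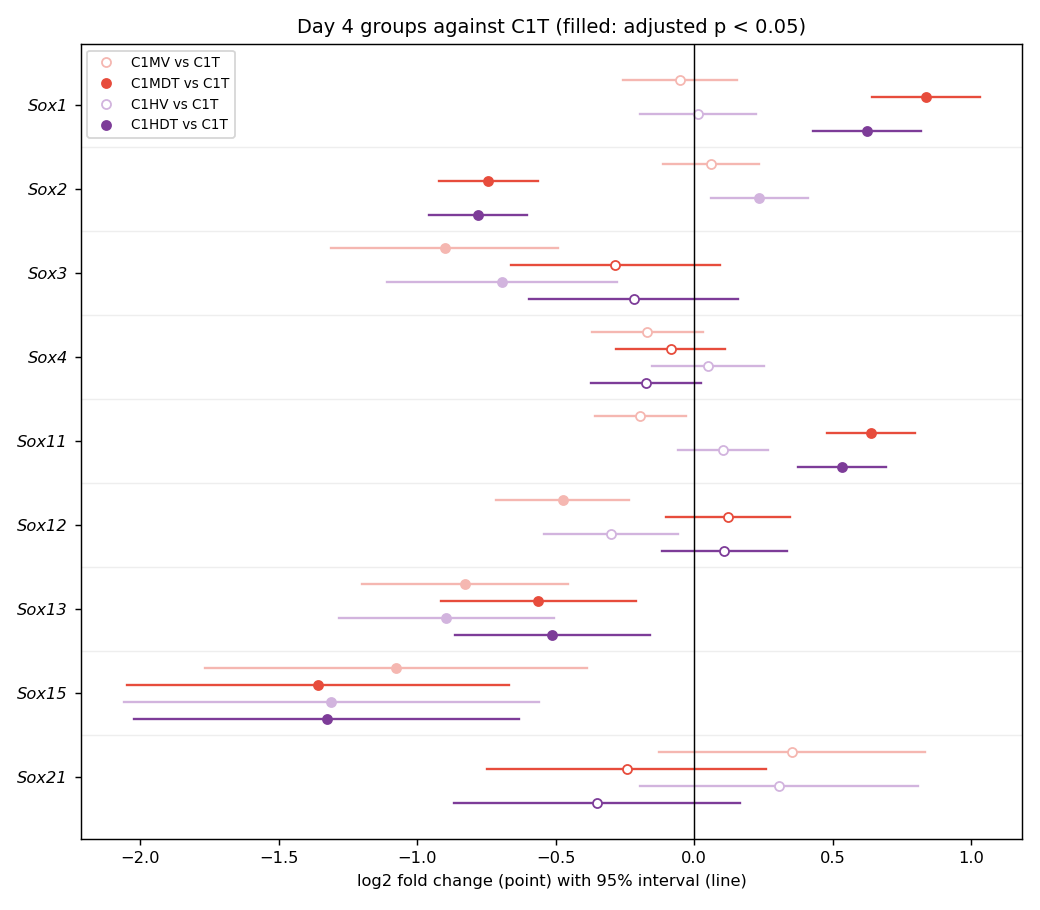
Log2 fold change of each SOX gene in C1MV, C1MDT, C1HV and C1HDT against C1T at day 4. Points are edgeR estimates, lines 95% intervals, and filled points have an adjusted p under 0.05; Sox13 and Sox15 lie below 0 in all 4 groups, and Sox1 and Sox2 leave 0 in opposite directions in C1MDT and C1HDT.

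Of the other 11 SOX genes, 7 were tested, and 2 or 3 of these were higher than in C1T in each of the 4 groups. Sox17, an endoderm factor, was at 2.36 ± 0.975 CPM in C1, had 0 to 2 counts per library in C1T, and reached 17.0 ± 4.42 CPM in C1MV and 12.6 ± 1.75 in C1HV, and 20.4 ± 2.51 in C1MDT and 22.4 ± 3.95 in C1HDT. Against the mean level of 3 counts in the C1T libraries, 1.52 CPM, its mean was 11.2-fold in C1MV, 13.4-fold in C1MDT, 8.26-fold in C1HV and 14.7-fold in C1HDT. These ratios are not lower bounds, since 3 counts is the limit for a count of 0 and C1T libraries held up to 2. Sox7, of the same SOXF subgroup, was at means of 3.12 to 5.11 CPM in these 4 groups and at 0 or 1 counts in every C1T library. Of the 7, 0 were called in C1M against C1 by edgeR (2 at an unadjusted p under 0.05). Sox6 and Sox8 rose in C1H against C1, with few reads: Sox6 had 1 to 4 counts per library in C1 and 9 to 23 in C1H, and Sox8 had 0 to 1 and 1 to 7.

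The groups were also put in the order of their mean log2 CPM for each gene, which gives 63 pairs of neighbours. With 4 against 4 libraries an exact two-sided permutation test cannot go below p = 0.0286, which 15 pairs reached, all of them without overlap, and after adjustment over the 63 pairs the smallest p was 0.12. The groups were ordered by the same means that the test compares, and no share over all genes was computed for such pairs. In 6 of the genes the largest step lay between a day 4 and a day 0 group. For Sox11 the step was from C1MV to C1M, 2.77, for Sox1 from C1MV to C1, 1.93, for Sox12 from C1MV to C1M, 1.82, for Sox4 from C1MV to C1H, 1.64, for Sox3 from C1MV to C1H, 1.44, and for Sox21 from C1 to C1MV, 1.32. In Sox1, Sox11 and Sox2 a further step, without overlap, set C1MDT and C1HDT apart from the rest of day 4: C1HDT was above C1HV by 0.61 for Sox1 and 0.43 for Sox11, and C1T was above C1MDT by 0.75 for Sox2. That of Sox2 was its largest, and the largest of Sox15 was from C1T to C1MV, 0.93. In Sox13 no pair of neighbours reached the smallest p.

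Between genes, the likeness of 2 patterns was measured as the root mean square difference of centred group means over the 8 groups, in log2 units. Among the 9 genes the nearest pairs were Sox3 with Sox12 (0.29), Sox3 with Sox4 (0.31) and Sox4 with Sox12 (0.33), and the farthest was Sox11 with Sox15 (3.01). Sox2 was nearest to Sox21 (0.38). Over all genes with a symbol and a mean log2 CPM of at least 3, the nearest to Sox1 were Limd2 (0.16), Rab34 (0.19) and 4933404O12Rik (0.26), and to Sox2 Cabp1 (0.08), Ccdc84 (0.10) and Zfp975 (0.11). Prps2 (0.16), Rims4 (0.22) and Prelid3a (0.24) were nearest to Sox3. For the SOXC genes they were Slc1a4 (0.16), Cdk6 (0.17) and Akr1b8 (0.17) for Sox4, Calca (0.27), Fzd2 (0.28) and Gja1 (0.29) for Sox11, and Sall2 (0.12), Arl4c (0.16) and Cacnb3 (0.18) for Sox12. Sox13 was nearest to Cox7c (0.09), Trib1 (0.13) and Actr3b (0.14), Sox15 to Vax2 (0.15), Zfp229 (0.22) and Dhrs3 (0.24), and Sox21 to Fbrsl1 (0.11), Mtf2 (0.13) and Mreg (0.13).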

How the data were processed

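The authors trimmed reads (bbduk), aligned them with STAR to mm10, ran htseq-count and deposited whole-number counts of uniquely aligned reads per Ensembl gene for each library, without normalization. Rows that name no gene were left out; relative to the reads on genes and these rows, 4.72 to 11.2% had no feature, 0.234 to 0.290% were ambiguous and 49.4 to 56.4% were not uniquely aligned. Whether counting used strand is not given in the sources used here. The labels describe growth in serum with LIF, whereas the paper's methods describe culture in 2i/L.

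Gene symbols and positions came from GENCODE M21 (GRCm38). Counts were scaled by TMM and tested with edgeR 4.0.16 (quasi-likelihood, robust, R 4.3.3) in one fit of all 32 libraries, on the 15280 genes that reached 1 CPM in 4 or more libraries. Adjustment was by Benjamini and Hochberg's method over all of them, with a threshold of 0.05 and 14 comparisons of groups and 5 differences of differences. SE is the size of the log2 fold change divided by the square root of F. Log2 CPM used a prior count of 2. Intervals are at 95%, and the limit of 3 counts covers counting error. Within groups, 0 of 48 pairs of libraries were identical, and their counts differed beyond sampling noise (chi-square per degree of freedom 1.55 to 4.63).

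The 9 genes and the lists were chosen with earlier results of these data known. Named genes were these 9, up to 4 per list and comparison with the largest change past the threshold, Ctnnb1, overlapping genes and the 3 genes of most similar pattern; Pou5f1, Afp, Ttr, Fabp7 and Pou3f2 and the nearest misses were named after their values were seen. The promoter motifs were also chosen after the data were seen. Replicate numbers recur in all groups. Over 112 pairs of libraries with the same number, the correlation of deviations from group means was -0.067 to 0.049, and 0 exceeded 0.1, so libraries were not paired. The alternatives were RLE size factors, library size only, DESeq2 1.42.0, no filter, 1 CPM in all libraries, a replicate block, a fit of the compared groups alone, and leaving out single libraries. On simulated data for C1T vs C1 with 200 of 15280 genes changed 3-fold, edgeR recovered 99.5% with 7.87% false calls and DESeq2 99.5% with 3.86%. The changed genes were drawn only from those above a minimum mean CPM, whereas 7528 genes were called in the data. The simulation therefore does not give the recovery for genes with few counts or for that many changed genes.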

Additional observations from a re-analysis of the deposited data

Results flagged for a closer look

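A library stood apart from the other 3 of its group in 3 of 72 combinations of gene and group, by the ratio of its gap to the range (Dixon's test at 95%), which chance alone gives in about 1 of 20. Sox1 had its lowest C1HV library, replicate 2, at 80.1 CPM, Sox11 its highest C1T library, replicate 3, at 326 CPM, and Sox21 its lowest C1M library, replicate 1, at 36.5 CPM.

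The change from day 0 to day 4 differed between C1T and each of the 4 groups from the mCherry fractions (edgeR, adjusted p under 0.05 for each value here, as the log2 change in the named group minus that in C1T). Sox1 had 1.24 in C1MDT, 0.61 in C1HV and 1.22 in C1HDT. Sox2 had -0.64 in C1MDT, 0.41 in C1HV and -0.60 in C1HDT, negative where the inducers were kept and positive in C1HV. Sox3, with few counts in C1, had -2.59, -1.97, -2.64 and -2.17 in C1MV, C1MDT, C1HV and C1HDT. Sox4 had -1.38, -1.30, -1.28 and -1.50 in C1MV, C1MDT, C1HV and C1HDT, and Sox11 had -1.81, -0.97, -1.32 and -0.89. Sox12 had -1.08 in C1MV and -0.75 in C1HV. Sox13 had -1.49 in C1MV, -1.23 in C1MDT and -1.04 in C1HV.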

How the results depend on the processing

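Of 171 pairs of a SOX gene and a comparison, 103 were called, and 91 of these stayed past the threshold in the same direction under every alternative run for them (7, or 6 for Sox3) and in the fits that left out each library of the groups compared; the other 12 were lost by leaving out a library and are named with the results. With the replicate block, 6 of the 9 genes were called for C1M vs C1, 9 for C1T vs C1, 5 for C1MDT vs C1MV and 4 for C1HDT vs C1HV, and the block changed no call. Fold changes that were not called took the other sign in 35 fits, 33 of them with a library left out. The count of the 9 genes called stayed within 1.5 times its value in each comparison. Over all genes tested it did not in C1H vs C1M (271 called, or 570 when these groups were fitted alone) and in the difference of the inducer effect between fractions (0 called, or 20 with DESeq2 and 11 with no filter). Scaling by library size only moved the split of higher and lower calls by over 10 percentage points in the 4 comparisons where both splits are given. Some values passed the threshold only under an alternative: in a fit of only the groups compared, Sox2 (adjusted p = 0.012) and Sox21 (0.039) in C1H vs C1 and Sox12 (0.043) in C1HV vs C1T; without filter, Sox21 in C1MDT vs C1MV (0.039). Sox21 in C1HDT vs C1HV passed under 4 alternatives. Others passed without a single library: Sox11 in C1MV vs C1T without C1MV replicate 2 (0.034) and in C1HV vs C1T without C1T replicate 3 (0.043), Sox13 in C1HV vs C1H without C1HV replicate 4 (0.044), Sox4 in C1HDT vs C1HV without C1HDT replicate 2 (0.038), Sox21 in C1MDT vs C1MV without C1MDT replicate 3 (0.023), and, in the difference of C1HDT from C1T, Sox13 without C1 replicate 3 (0.042) and Sox21 without C1HDT replicate 2 (0.018) or 3 (0.024). With 1 CPM required in all libraries 8 of the 9 genes could be tested, since Sox3 was dropped. With library size only, 14 neighbouring groups stood apart in place of 15, and 27 of 28 group pairs kept their order in Sox1 and Sox4; the nearest genes were the same 3 for each SOX gene. Depth limits Sox3 in C1 (1 to 4 counts) and Sox15 at day 4.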
